A study of Mus musculus with 12 samples.

Results

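The actin genes of the triceps brachii muscle were Actc1, Acta1, Acta2, Actb and Actg1, chosen by gene symbol, and they made up 5 of the 10187 genes measured. The set was proposed because Actc1, cardiac actin, differed between the genotypes. Differences between genotypes are therefore described for these 5 genes without a test, and the tests concern physical activity and its interaction with genotype. Actc1 exhibited 4.95 times as many normalized reads in the 6 myostatin-reduced mice as in the 6 wild-type mice, whether or not the mice ran. Acta1, the skeletal muscle actin that dominates the tissue, exhibited 1.14 times as many. None of the 4 actin genes with a mean of at least 10 normalized reads passed the test for activity or for the interaction. Of all genes tested, 14.5% passed for activity and 0% for the interaction. Actg1, tested apart, passed neither.

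Actins are the globular proteins that polymerize into thin filaments. In the sarcomere of striated muscle, the thin filament slides along myosin, and it is built from skeletal muscle alpha-actin (Acta1) and cardiac alpha-actin (Actc1). Cardiac actin is the main sarcomeric actin of the heart and of developing skeletal muscle, and skeletal muscle replaces most of it with Acta1 as it matures. Smooth muscle alpha-actin (Acta2) belongs to the contractile cells of vessel walls, while beta-actin (Actb) and gamma-actin (Actg1) build the cytoskeleton of nearly every cell. Myostatin is a secreted inhibitor of muscle growth.

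RNA with poly(A) tails was sequenced from the triceps of 12 male C57/BL6 mice, each sample coming from a separate mouse. All mice, controls included, ate chow with 0.025% tamoxifen for 6 weeks in total from 4 months of age, which activates Cre recombinase. Inactive wild-type (IW) and active wild-type (AW) mice kept normal myostatin, and inactive myostatin-reduced (IM) and active myostatin-reduced (AM) mice carried floxed myostatin genes that the chow depleted. Active mice lived singly with a running wheel for 12 weeks from 6 months of age, inactive mice had no wheel, and n = 3 in each group. The promoter that drove Cre was not given in the sources used here. The samples were muscle tissue with its cell types mixed, so fewer cells of a type and less RNA per cell cannot be told apart.

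Values are normalized reads, that is, read counts per gene that the authors scaled between mice without dividing by gene length. An estimated 9024016 to 12184693 reads per mouse lay behind them, and 3 reads corresponded to 0.231 to 0.316 normalized reads, which covers counting error only. Mstn, the targeted gene, ranged from 79.7 to 138 normalized reads among wild-type mice and from 8.70 to 21.6 among myostatin-reduced mice (log2 difference -2.66, adjusted p = 1.29e-06 by limma with Benjamini-Hochberg adjustment). The mice also differed in slow muscle fibre genes. The summed level of 11 slow fibre markers was 94.3 to 1370 normalized reads in IW and 151 to 1831 in AW mice, against 78.3 to 112 in IM and 117 to 1343 in AM mice. Of 7247 genes with a mean of at least 10, limma called 14.5% for activity.

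Whether the values of different actins can be told apart depends on their sequences, because the 65-base reads were assigned to genes that resemble each other. The genes lie apart in the genome, all on the minus strand (GENCODE vM1 annotation of NCBIM37, the mm9 build the authors used). Actc1 lies at chr2:113873018-113879284 and Acta1 at chr8:126415669-126418651, each with 7 exons. Acta2 spans chr19:34315580-34329826 with 9 exons. Actb lies at chr5:143664794-143668433 and Actg1 at chr11:120207004-120209856, each with 6 exons. Actc1 and Acta1 were identical at 86.2% of their 1134 coding bases, and the most alike pair, Actb and Actg1, at 88.7%. The pairs involving Acta2 ranged from 81.9% to 85.4%.

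Slid along the coding sequence of Actc1 and Acta1, a 65-base window differed at a median of 9 bases, with a range of 2 to 16. In 5 of 1070 windows they differed at no more than 2 bases, and in none were they identical.

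The least alike window within an exon is shown because it is where a read of Acta1 is easiest to tell from one of Actc1. It covers coding bases 458 to 522 in exon 4, at chr2:113875345-113875409 and chr8:126416827-126416891 (NCBIM37, minus strand), where the 14 bases that differ are in capitals.
Actc1: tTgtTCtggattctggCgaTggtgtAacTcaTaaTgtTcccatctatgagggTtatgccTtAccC
Acta1: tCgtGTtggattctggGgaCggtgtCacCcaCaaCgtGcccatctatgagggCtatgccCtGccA

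Searched against the whole genome with up to 2 mismatches, 12 of 1025 exon windows of Actc1 (1.17%) had another site, and 5 of these lay in an exon of Acta1. None of the Actc1 windows had an identical copy elsewhere. Acta1 had 56 of 1002 such windows (5.59%) and Acta2 17 of 1222 (1.39%). The cytoplasmic actins were less distinct, with 606 of 1536 windows for Actb (39.5%, 5.47% with an identical copy). For Actg1, 1524 of 1568 windows (97.2%) had another site, 1490 had an identical one, and where any was found the median was 5 other sites. How the counting treated reads with several sites was not given in the sources used here, so the Actg1 values and, in part, the Actb values are uncertain.

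**Figure D1:**
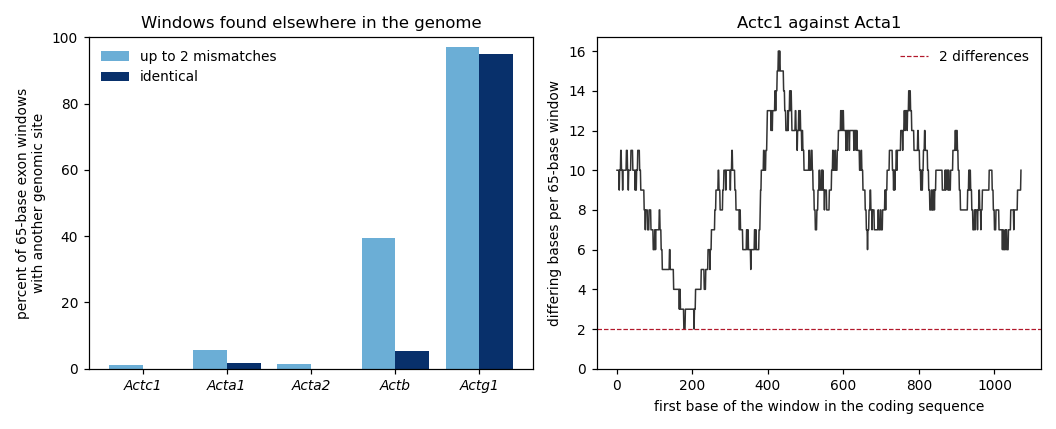
Left, percent of 65-base exon windows of each actin gene that occur elsewhere in the genome, with up to 2 mismatches (light bars) or identically (dark bars). Right, number of bases by which Actc1 and Acta1 differ in each 65-base coding window, by the position of its first base, with a dashed line at 2 differences. Actc1, Acta1 and Acta2 windows were mostly found once, Actg1 windows mostly several times, and Actc1 and Acta1 come within 2 differences in only 5 of 1070 windows.

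Actc1 was low and variable in wild-type muscle. It was at 18.3, 71.2 and 18.7 normalized reads in the IW mice and at 49.3, 35.2 and 24.2 in the AW mice. Myostatin-reduced muscle held 186, 152 and 240 normalized reads in the IM mice and 189, 156 and 152 in the AM mice. The 6 myostatin-reduced mice all lay above the 6 wild-type mice, and the lowest of them was at 2.13 times the highest wild-type mouse. The estimated reads behind these values numbered 179 to 2616 per mouse.

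Between genotypes, the Actc1 means were 36.1 ± 30.4 (SD, n = 3) in IW against 193 ± 44.7 in IM mice, a ratio of 5.34. Among active mice they were 36.2 ± 12.6 in AW against 166 ± 20.1 in AM mice, a ratio of 4.57. On the scale of log2(normalized reads + 1) the difference was 2.43, the second largest rise and the third largest difference of either sign among the 7247 genes. These values belong to the contrast that led to the choice of the gene and are given as a description. As background, all 6 myostatin-reduced mice lay above all 6 wild-type mice in 1.24% of genes, and Actc1 was the 1 actin gene for which they did.

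With activity, Actc1 exhibited no difference beyond the spread between mice. In wild-type mice the means differed by a factor of 1.00, and the log2 difference of AW from IW was 0.25 (95% interval -0.65 to 1.14, adjusted p = 0.837 by limma). Among myostatin-reduced mice, the AM mean was at 0.860 of the IM mean, with a log2 difference of -0.20 (-1.09 to 0.70, adjusted p = 0.802). Both intervals reach past 1 on the log2 scale, upward in wild-type and downward in myostatin-reduced mice. From lowest to highest the groups ran IW, AW, AM and IM, and only the step from AW to AM was larger than the SD of its groups.

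IW mouse 2 stood apart, with 71.2 normalized reads of Actc1 against 18.3 and 18.7 in the other IW mice. Without it the log2 difference of AW from IW was 0.88 in place of 0.25, and it was again not called. It also exhibited the lowest slow fibre sum of its group, 94.3 against 312 and 1370 normalized reads. Among the AW mice, the one with 49.3 normalized reads of Actc1 had a slow fibre sum of 151, and those with 35.2 and 24.2 had sums of 1638 and 1831. The 3 IM mice combined high Actc1 with slow fibre sums of 78.3 to 112. In the AM mice the order was different, since the mouse with the lowest Actc1 (152 normalized reads) also had the lowest slow fibre sum (117), and those with 189 and 156 had sums of 641 and 1343. A high slow fibre sum thus occurred with both low and high Actc1. The part of fibre type in the Actc1 levels was not tested.

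**Figure D2:**
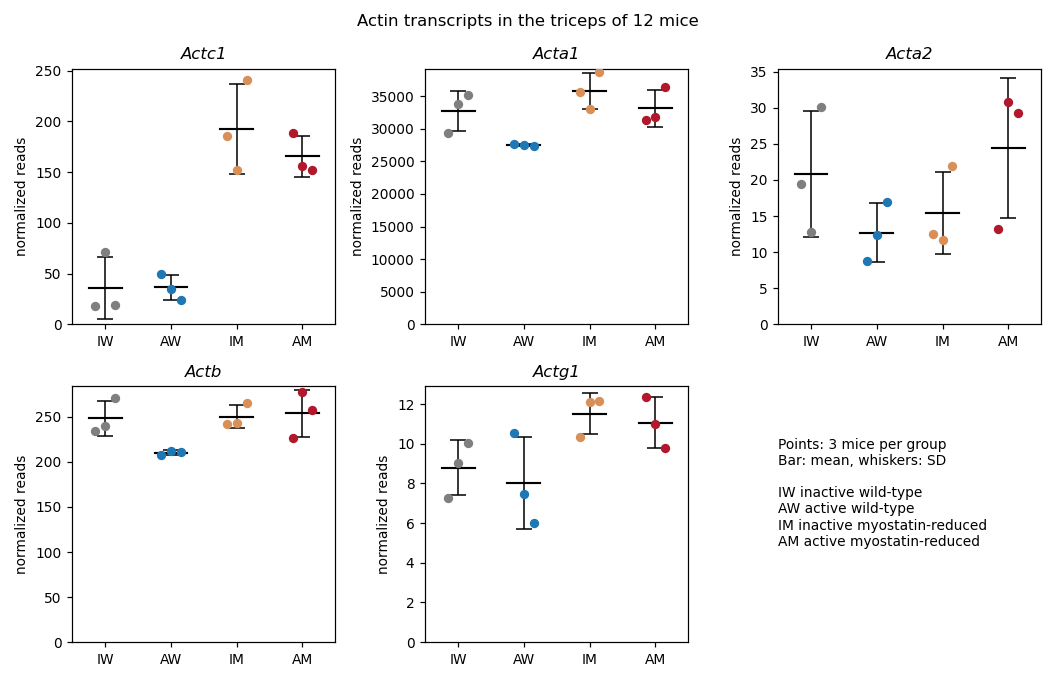
Normalized reads of the 5 actin genes in each of 12 mice, by group (IW, AW, IM, AM), with each panel on its own linear axis from 0. Points are mice, bars are group means and whiskers are SD (n = 3). Actc1 separates the myostatin-reduced from the wild-type mice (152 and above against 71.2 and below), whereas the groups of the other genes overlap or lie close.

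Acta1 was the third most abundant of all transcripts by normalized reads and supplied 2.80% to 3.58% of the summed values of a mouse. Per kilobase of transcript its mean over 12 mice was 22330 normalized reads, 306 times that of Actc1, 178 times that of Actb and 2170 times that of Acta2. Actc1 thus remained a minor sarcomeric actin in every group, at 24.5 normalized reads per kilobase in IW and 131 in IM mice.

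The IW mice held 29309, 33770 and 35113 normalized reads of Acta1, and the AW mice 27644, 27483 and 27352. The IM mice held 35629, 33093 and 38677, and the AM mice 31278, 31780 and 36343. The AW mice were the lowest of all 12 and were closely alike, while the other 3 groups overlapped. How many of all genes set a group apart in this way was not counted. From AW (27493 ± 146) the means ran in order through IW (32731 ± 3038), AM (33134 ± 2791) and IM (35800 ± 2796), and only the first step was larger than the SD of its groups.

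In wild-type mice the Acta1 mean was 16.0% lower with activity. The log2 difference of AW from IW was -0.25 (95% interval -0.50 to 0.01) and did not pass the test (adjusted p = 0.355 by limma). Among myostatin-reduced mice it was -0.11 (-0.37 to 0.14, adjusted p = 0.583). Averaged over genotypes the difference was -0.18, with an unadjusted p = 0.0521 and an adjusted p = 0.169 by limma. Between genotypes, Acta1 was 9.38% higher in IM than in IW mice, where the groups overlapped, and 20.5% higher in AM than in AW mice, where they did not.

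Relative to Acta1, Actc1 made up 0.0625%, 0.210% and 0.0532% of the sarcomeric actin reads (Acta1 plus Actc1) in the IW mice and 0.178%, 0.128% and 0.0884% in the AW mice. Its share was 0.519%, 0.456% and 0.617% in the IM mice and 0.600%, 0.488% and 0.417% in the AM mice. Actc1 was therefore under 1 in 100 sarcomeric actin reads even where it was highest. The share differed between active and inactive mice by -0.00313 percentage points, less than the spread between mice (exact two-sided permutation of activity within genotype, p = 0.93, adjusted p = 0.93). Sarcomeric actin as a whole supplied 3.23% ± 0.242 of all summed values in IW and 2.90% ± 0.0821 in AW mice, with 3.37% ± 0.228 for the IM and 3.39% ± 0.171 for the AM mice. That share differed with activity by -0.158 percentage points (exact permutation p = 0.22, adjusted p = 0.66). The adjustment covered 3 shares, and 0.005 was the smallest p that the 400 arrangements allow.

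**Figure D3:**
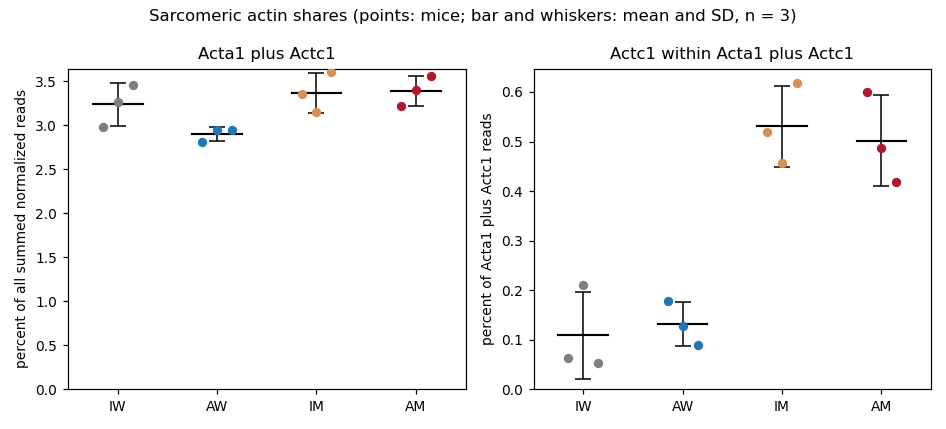
Left, percent of all summed normalized reads that came from Acta1 plus Actc1. Right, percent of the Acta1 plus Actc1 reads that came from Actc1. Points are mice, bars are group means and whiskers are SD (n = 3). The total share lies between 2.80% and 3.60% in all groups, whereas the Actc1 share is 0.417% and above in myostatin-reduced mice and 0.210% and below in wild-type mice.

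Acta2, the actin of vascular smooth muscle, was scarce, with 10.3 normalized reads per kilobase over 12 mice. The IW mice held 19.4, 12.8 and 30.2 normalized reads, and the AW mice 8.74, 12.4 and 17.0. The IM mice held 12.5, 11.7 and 22.0, and the AM mice 13.2, 30.8 and 29.2. The lowest mouse of each group lay between 8.74 and 13.2 normalized reads and the highest between 17.0 and 30.8, and all 4 groups overlapped. No step between neighbouring group means (AW, IM, IW, AM) exceeded the SD of its groups.

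The AW mean of Acta2 was at 0.610 of the IW mean (log2 difference -0.64, 95% interval -1.42 to 0.15, adjusted p = 0.455 by limma). In myostatin-reduced mice the AM mean was at 1.58 times the IM mean (0.60, -0.19 to 1.38, adjusted p = 0.319). The 2 log2 differences had opposite signs, and their difference, the interaction, was 1.23 (SE 0.51, interval 0.12 to 2.34). It carried an unadjusted p = 0.032 and an adjusted p = 0.89 by limma, and 4.10% of all genes had an unadjusted p under 0.05 for the interaction. Between genotypes, Acta2 differed by -0.38 on the log2 scale among inactive mice and by 0.85 among active mice.

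Other genes were ranked by how closely they followed Acta2 among the mice. Those whose deviations from their group means were most like those of Acta2 were Myl9, a smooth muscle myosin light chain (Pearson r = 0.984, Spearman rho = 0.986, 12 mice, highest of 7243 genes), Nisch (r = 0.976) and Eng, an endothelial receptor (r = 0.967). On the levels themselves, genes close to Acta2 were Myh11, the smooth muscle myosin heavy chain (r = 0.939), Hspg2 (r = 0.932), Mbp, a protein of the myelin sheath of nerves (r = 0.928), and Flna (r = 0.925). These genes were picked for their high r, so the values describe likeness and carry no test. Group means of Myh11 were 22.9 normalized reads in IW and 19.0 in AW mice, then 17.2 in IM and 30.1 in AM mice, so that like Acta2 it was highest in AM, but it was lowest in IM where Acta2 was lowest in AW mice.

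Of 13 smooth muscle and pericyte markers, 11 were tested. Their summed level was 888 to 909 normalized reads in IW and 702 to 818 in AW mice, then 768 to 820 in IM and 808 to 922 in AM mice. None of the 11 passed the test for the interaction (limma, 1 of 11 at an unadjusted p under 0.05), and their median log2 interaction was 0.43 against -0.01 over all genes. With activity 1 marker of 11 passed, against 14.5% of all genes, and 4 passed without AW mouse 1 or with array weights. The 1 marker was Synpo2, which fell by 0.26 on the log2 scale (adjusted p = 0.00695). At 446 to 575 normalized reads in the group means, Synpo2 supplied the larger part of the sum. The median log2 difference of the 11 with activity was 0.16 (range -0.26 to 0.34), against -0.02 over all genes. An unadjusted p under 0.05 by limma occurred in 4 of the 11, against 30.2% of all genes. Cnn1 and Actg2 had no entry under these symbols among the genes measured. The part of vessel content in the Acta2 levels was not tested.

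**Figure D4:**
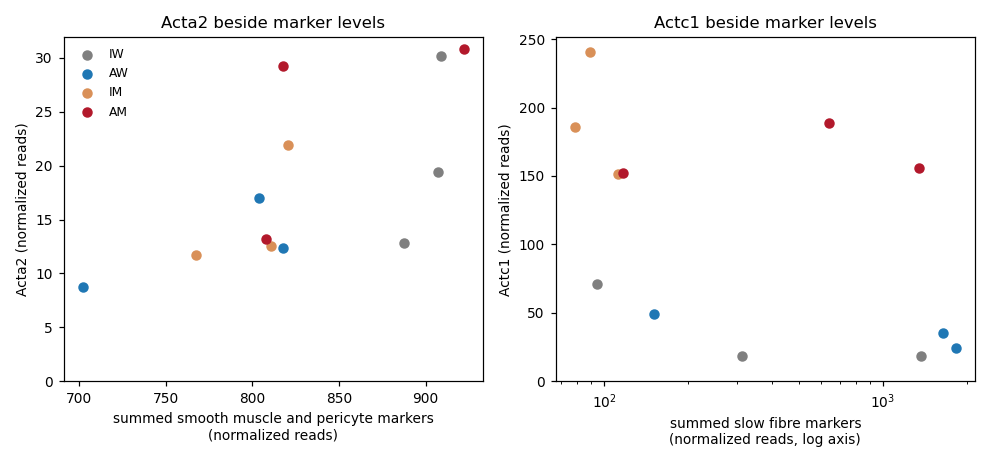
Left, Acta2 against the summed level of 11 smooth muscle and pericyte markers, of which Synpo2 supplied the larger part. Right, Actc1 against the summed level of 11 slow fibre markers on a log axis. All values are normalized reads, each point is a mouse and colours mark the 4 groups. Acta2 is lowest in the AW mouse with the lowest smooth muscle sum (8.74 at 702), and Actc1 is high in AM mice with slow fibre sums from 117 to 1343.

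Actb varied least among the mice, the highest mouse being at 1.34 times the lowest, against 1.41 for Acta1, 2.05 for Actg1, 3.53 for Acta2 and 13.1 for Actc1. The IW mice held 235, 240.2 and 271 normalized reads, the AW mice 207, 212 and 211, the IM mice 243, 243 and 265, and the AM mice 226, 278 and 258. As for Acta1, the AW mice were lower than every other mouse and closely alike, and the other 3 groups overlapped. Again, the share of all genes with such a separation was not counted. The step from AW (210.3 ± 2.59) to IW (248 ± 19.4) exceeded the SD, whereas those to IM (250.2 ± 12.9) and AM (254 ± 26.1) did not.

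In wild-type mice, Actb was 15.4% lower with activity (log2 difference -0.24, 95% interval -0.41 to -0.06). Its unadjusted p was 0.0128 and its adjusted p was 0.198 by limma, so it was not called. The AM and IM mice differed by 0.02 (-0.16 to 0.20, adjusted p = 0.911). The interaction was 0.25 (0.00 to 0.51) with an unadjusted p = 0.0466 and an adjusted p = 0.89 by limma. Between genotypes, Actb was 0.694% higher in IM than in IW mice and 20.8% higher in AM than in AW mice. When the values were rescaled to the total of all other genes, the log2 difference of AW from IW was -0.15 for Actb and -0.16 for Acta1, against -0.24 and -0.25 as deposited.

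Actg1 had a mean of 9.84 normalized reads, just under the minimum of 10, and its tests are given from a fit without a filter on low values. The IW mice held 7.28, 9.04 and 10.02 normalized reads and the AW mice 10.6, 7.47 and 6.03. The IM mice held 10.3, 12.1 and 12.1 and the AM mice 12.4, 11.02 and 9.81. All IM mice lay above all IW mice, while AM and AW mice overlapped. The share of all genes with such a separation among inactive mice was not counted. The means of the myostatin-reduced groups were 31.2% higher among inactive and 37.9% higher among active mice. With activity the log2 difference was -0.10 (adjusted p = 0.643 by limma without the filter). Only 72.0 to 147 estimated reads per mouse stood behind Actg1, and nearly all of its windows have other sites in the genome.

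Of the cytoplasmic actin reads (Actb plus Actg1), Actb supplied 96.6% ± 0.341 in IW and 96.3% ± 1.06 in AW mice (SD, n = 3), with 95.6% ± 0.330 for the IM and 95.8% ± 0.832 for the AM mice. That share differed between active and inactive mice by -0.0436 percentage points (exact permutation p = 0.915, adjusted p = 0.93). Across the 12 mice, the deviations of Acta2 and Actb from their group means had r = 0.842, those of Acta1 and Actb r = 0.541 and those of Actc1 and Acta2 r = -0.532. These correlations share the scaling of each mouse and are descriptions only.

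For activity, limma called 0 of the 4 actin genes tested, and 0 of 4 had an unadjusted p under 0.05. As background, activity was called in 14.5% of all genes, and active and inactive mice did not overlap in 4.29% of them, with no actin gene among these. In wild-type mice 0 of 4 were called, against 0.0276% of all genes, and Actb was the 1 gene with an unadjusted p under 0.05. Among myostatin-reduced mice 0 of 4 were called, against 7.84% of all genes, and none had an unadjusted p under 0.05. The interaction was called in 0 of 4, as in 0% of all genes, while Acta2 and Actb had an unadjusted p under 0.05. Over all genes, an unadjusted p under 0.05 occurred in 30.2% for activity, 14.7% in wild-type mice, 26.2% in myostatin-reduced mice and 4.10% for the interaction. Comparisons within the 2 genotypes use separate mice, but the interaction shares its mice with both.

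**Figure D5:**
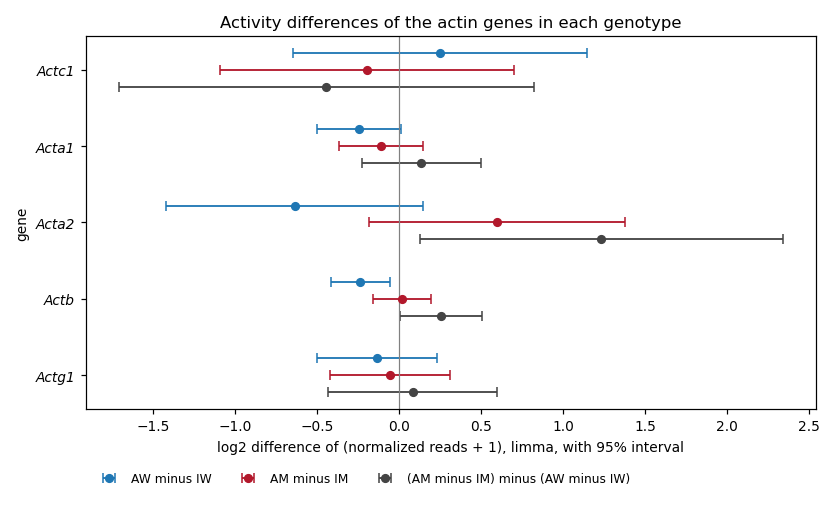
Log2 differences of (normalized reads + 1) with activity in wild-type mice (blue), in myostatin-reduced mice (red) and their difference, the interaction (dark grey), for the 5 actin genes. Points are limma estimates and whiskers are 95% intervals, from the fit without a filter on low values for Actg1. The widest intervals belong to Actc1 and Acta2, and the interaction of Acta2 is 1.23 with an interval of 0.12 to 2.34.

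Genes that build, fold or turn over actin filaments were compared as lists, with the same limma tests over all genes. Of 24 partners of the thin filament and Z-disc, 23 were tested. With activity, 2 were called higher and 1 lower, a share near the background of 14.5%. An unadjusted p under 0.05 by limma was more frequent, in 14 of the 23 against 30.2% of all genes. The median log2 difference of the 23 was -0.09 against -0.02 over all genes. Actn2, the alpha-actinin that anchors thin filaments in all fibres, rose by 1.14 on the log2 scale (adjusted p = 0.00517), from means of 635 to 985 normalized reads in wild-type and from 346 to 1089 in myostatin-reduced mice. Actn3, the alpha-actinin of fast fibres, fell by 0.49 (adjusted p = 0.0186). Myot, a Z-disc protein, rose by 0.18 (adjusted p = 0.0307), a call that held in 12 of 20 other settings. The count of 3 ranged from 1, without IW mouse 2, AW mouse 2 or AW mouse 3, to 11 without AW mouse 1 and 13 with array weights. The summed slow fibre level was also above 600 normalized reads in 4 of the 6 active and 1 of the 6 inactive mice, and its part in these calls was not tested.

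Between genotypes, 4 of the 23 were called, 3 higher and 1 lower in myostatin-reduced mice, against 5.78% of all genes. Tmod1, which caps the pointed end of the thin filament, was higher by 0.33 (adjusted p = 0.0218), with means of 268 in IW and 239 in AW against 349 in IM and 287 normalized reads in AM mice. Ldb3, a Z-disc protein, was higher by 0.21 (adjusted p = 0.0279) and Actn3 by 0.47 (adjusted p = 0.0392). Lmod3, which nucleates actin in skeletal muscle, was lower, with a log2 difference of -0.28 (adjusted p = 0.0342). These 4 calls held in 10 to 14 of 20 other settings, and all were lost without IW mouse 1, AW mouse 2, AW mouse 3, IM mouse 1, IM mouse 3 or AM mouse 3. The interaction was called for none of the 23 (limma, 2 at an unadjusted p under 0.05).

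Of 34 genes for actin folding, assembly and turnover, 30 were tested. With activity 3 were called higher and 2 lower, a share near the 14.5% of all genes. An unadjusted p under 0.05 by limma occurred in 12 of the 30, against 30.2% of all genes. Tmsb4x, which binds actin monomers, rose by 0.33 (adjusted p = 0.0122), from means of 108 to 138 normalized reads in wild-type and from 98.5 to 123 in myostatin-reduced mice. Arpc1a, a subunit of the complex that branches actin filaments, rose by 0.22 (adjusted p = 0.0448), and so did Arpc3, of the same complex and named here after its values were seen, by 0.23 (adjusted p = 0.0487). Cap2, which recycles actin monomers, fell by 0.20 (adjusted p = 0.0158) and Fhod3, a formin of striated muscle, by 0.18 (adjusted p = 0.0218). Rescaled to the total of all other genes, these differences were -0.10 and -0.08 and neither was called. The activity count of this list was 10 under that rescaling, 3 without the filter and 2 without IW mouse 2, AW mouse 2 or AW mouse 3. Between genotypes Arpc2 was the 1 gene of 30 called, against 5.78% of all genes, and it was higher by 0.19 (adjusted p = 0.0393). The calls of Arpc1a and Arpc2 were the least stable of those named by rule in this list, held in 6 of 19 and 9 of 20 other settings. Of 13 other actins and actin-related proteins, 8 were tested and none was called for activity or genotype (limma, 3 and 2 at an unadjusted p under 0.05).

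Serum response factor binds the CArG box, a motif in the promoters of many actin genes, together with coactivators that sense free actin monomers. Of 9 genes listed for this system, 8 were tested. Their median log2 difference between genotypes was -0.26 against -0.00 over all genes, with 2 called lower and 6 at an unadjusted p under 0.05. Over all genes, 5.78% were called for genotype and 22.5% had an unadjusted p under 0.05. Abra, which links actin dynamics to serum response factor, was at means of 106 in IW and 112 in AW against 77.3 in IM and 95.4 normalized reads in AM mice (genotype log2 difference -0.34, adjusted p = 0.00275), and it rose with activity by 0.19 (adjusted p = 0.0271). Tead1, a partner of Yap1 at muscle promoters, was lower in myostatin-reduced mice by a log2 difference of -0.33 (adjusted p = 0.0317). Fhl1, a LIM-domain protein of the sarcomere, rose with activity by 0.93 (adjusted p = 0.0206). The genotype call of Abra held in 20 of 20 other settings and that of Tead1 in 12, while the activity calls of Abra and Fhl1 held in 13 and 15. Both activity calls were lost when IW mouse 2, AW mouse 2, AW mouse 3, IM mouse 3 or AM mouse 2 was left out.

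The promoters of the actin genes are shown where they hold a CArG box, because the list concerns the factor that binds it. RefSeq promoters of 300 bases (GRCm38.p6, a later build than that of the values, and used for sequence alone) were found for 4 of the 5 genes. The motif searched was the CArG box, CC, 6 bases of A or T, then GG, a pattern that is its own reverse complement, so that 1 search covers both strands. A box occurred in 3 of the 4, in Actc1 at 47 to 38 bases before the start site (stretch shown chr2:114052893-114052942), in Acta1 at 73 to 64 bases (chr8:123894819-123894868) and in Actg1 at 90 to 81 bases (chr11:120348556-120348605), all on the minus strand with the box in capitals. No match was found in these 300 bases of Acta2, and 535 of 32851 promoters of the same length (1.63%) held a box.
Actc1: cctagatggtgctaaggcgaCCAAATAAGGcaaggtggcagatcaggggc
Acta1: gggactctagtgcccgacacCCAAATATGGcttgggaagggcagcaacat
Actg1: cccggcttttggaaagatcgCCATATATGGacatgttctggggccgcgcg

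Since cardiac actin is also the actin of developing muscle, 20 genes of fetal, cardiac or regenerating muscle were listed beside it. Only 3 had a mean of at least 10, and none of these was called between genotypes (limma, 0 of 3 at an unadjusted p under 0.05), although Myod1, a regulator of muscle identity, was called when AW mouse 1 was left out. Chrna1, a subunit of the acetylcholine receptor at the nerve contact, rose with activity by 0.51 (adjusted p = 0.0126). The other 6 genes with values lay below the minimum and were tested in the fit without a filter, where 4.22% of all genes were called for genotype.

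In that fit 2 of the 9 genes were called between genotypes, Sln and Ankrd1, both named here after their values were seen. Sln, sarcolipin, a small protein of atrial and developing muscle that restrains the calcium pump, was at 0.63, 2.03 and 0.94 normalized reads in the IW mice and at 1.64, 2.39 and 2.46 in the AW mice. It was at 6.43, 5.18 and 7.72 in the IM mice and at 5.71, 6.70 and 4.81 in the AM mice. As with Actc1, all 6 myostatin-reduced mice lay above all 6 wild-type mice (log2 difference 1.44, adjusted p = 0.000403 by limma without the filter), with 7.01 to 87.0 estimated reads per mouse. Ankrd1, a stress-responsive protein of cardiac muscle, was lower in myostatin-reduced mice, with a log2 difference of -0.87 (adjusted p = 0.00476) and means of 8.30 in IW and 8.66 in AW against 5.04 in IM and 3.45 normalized reads in AM mice. The embryonic and perinatal myosins Myh3 and Myh8, with means of 3.60 and 8.31, and the cardiac myosin Myh6, with 2.88, were not called. The other 11 genes, among them Myl4, Myl7, Tnnt2 and Tnni3, had no entry under their symbols among the 10187 genes measured.

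The level of Actc1 over 12 mice was most like that of Yap1, a transcriptional coactivator of the Hippo pathway (Pearson r = 0.958, Spearman rho = 0.979, highest of 7243 genes), with means of 72.0 in IW and 76.9 in AW against 88.9 in IM and 91.0 normalized reads in AM mice. Next came Tst, a mitochondrial sulfurtransferase (r = 0.943), Lpin1, a phosphatidate phosphatase (r = 0.938), Stbd1, a glycogen-binding protein (r = 0.932), and Afap1l1 (r = 0.931). Because the genotypes form separate clusters in Actc1, these r values include the gap between genotypes. Within groups, the deviations most like those of Actc1 were found for Ppm1a (r = 0.934), Arnt (r = 0.934) and Adam9 (r = 0.931). All were chosen for their high r and are given without a test.

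Other cell types and fibre types were followed as marker lists, to be read against the 14.5% of all genes called for activity and 5.78% for genotype. Fast fibre markers changed with activity in 6 of 12 genes: 2 rose, among them Myh2, the myosin of oxidative fast fibres (2.04, adjusted p = 0.0251) and Myh1 (1.51, adjusted p = 0.0019), and 4 fell, among them Myh4, the myosin of the fastest fibres (-0.57, adjusted p = 0.0127) and Actn3. The count was 2 without IW mouse 2, AW mouse 2 or AW mouse 3 and 3 without IW mouse 3, IM mouse 3 or AM mouse 2. Among 11 slow fibre markers, Casq2 was the 1 called with activity (1.34, adjusted p = 0.00306), while the median log2 difference was 1.80 (7 were called without AW mouse 1 or with array weights), and between genotypes the median was -1.30 with none called (limma, 1 at an unadjusted p under 0.05). Endothelial markers rose with activity in 5 of 9 genes, led by Tie1 (0.63, adjusted p = 0.0119), Tek (0.49, adjusted p = 0.0122), Emcn (0.59, adjusted p = 0.0158) and Kdr (0.53, adjusted p = 0.0281). That count was 3 without IW mouse 2, AW mouse 2, AW mouse 3, IM mouse 2, IM mouse 3 or AM mouse 2, and 2 at a minimum mean of 50. Fibroblast markers (6 tested) and macrophage markers (2 tested) had no call for activity (limma, 3 and 0 at an unadjusted p under 0.05) or genotype (0 and 0), but 3 fibroblast markers were called for activity without AM mouse 2. Between genotypes, Smtn, a smooth muscle protein, was called higher by 0.28 (adjusted p = 0.0483, held in 9 of 20 other settings).

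Scaling affected the balance of calls over all genes. As deposited, 55.1% of the genes called for activity and 61.8% of those called for genotype were higher, and these shares became 89.7% and 31.1% after rescaling to the total of all genes other than the actins. The median log2 difference of all genes with activity moved from -0.02 to 0.08. Under the same rescaling the genotype difference of Actc1 was 2.38 on the log2 scale, and the actin genes remained without a call for activity or the interaction.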

How the data were processed

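Polyadenylated RNA was sequenced as 65-base single-end reads. The authors mapped them to mm9 with CASAVA (version not given in the sources used here), counted reads in RefSeq exons per gene and scaled the trimmed means to be equal. The deposited unit is therefore a signal, a scaled read count not divided by length. Strand use was not given. Of values under 5, 90.1% to 92.8% were whole multiples of 1 read, but of those at 20 to 50 only 72.4% to 74.8% (within 0.1 read), so no count model was fitted.

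Groups came from sample titles. log2(value + 1) was tested with limma 3.58.1 (R 4.3.3; group means, eBayes with trend, two-sided, Benjamini-Hochberg over 7247 genes of mean at least 10, called under 0.05) after checks on simulated data. Exact permutation tests used scipy 1.17.1. Members and lists were chosen with earlier results of these data known. Named were the actins, Mstn, the genes most like Actc1 and Acta2, and up to 4 called genes per list, except for items not reported here. Replicate numbers were not taken as pairs. Normalization, filters, weights and omitted mice were varied.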

Additional observations from a re-analysis of the deposited data

How the results depend on the processing

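No actin gene was called for activity, in either genotype or for the interaction, in the main analysis or in those of the 20 other settings in which it was tested. Actg1 passed the minimum of 10 only without IW mouse 1, AW mouse 2 or AW mouse 3, and otherwise was tested in the fit without a filter alone. Acta2 was not tested at a minimum mean of 50. The smallest adjusted p-values by limma were 0.0665 for activity (Acta1, minimum mean of 50), 0.0756 in wild-type mice (Actb, array weights), 0.0726 in myostatin-reduced mice and 0.268 for the interaction (Acta2, both without AM replicate 1). The signs of several uncalled differences turned, and the cause was not tested. With array weights the activity difference was -0.0904 for Actc1 and 0.172 for Acta2, and that of Actc1 in wild-type mice was -0.0337. Rescaled to the total of other genes, Acta2 was at 0.0768, and Acta1 in myostatin-reduced mice at 0.0107.

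Leaving out each mouse in turn, activity differences ranged from -0.14 to 0.34 for Actc1 (-0.0746 to 0.88 in wild-type and -0.36 to -0.03 in myostatin-reduced mice), from -0.18 to -0.05 for Acta1 in myostatin-reduced mice, from -0.17 to 0.17 for Acta2 (-0.93 to -0.34 in wild-type and 0.39 to 0.97 in myostatin-reduced mice) and from -0.0493 to 0.10 for Actb in myostatin-reduced mice. Over the 3 omissions that let Actg1 be tested, its difference in wild-type mice was -0.25 to 0.0269 and its interaction -0.0825 to 0.20. The sarcomeric actin share differed by -0.222 to -0.0997, the Actc1 share by -0.0277 to 0.0223 and the Actb share by -0.267 to 0.249 percentage points. The genotype difference of Actc1 stayed at 2.27 to 2.75.

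Of the listed genes, 23 were called for activity and 8 for genotype, against 46 and 13 with array weights. Leaving out mice gave 11 to 44 for activity (11 without IW mouse 2, AW mouse 2 or AW mouse 3, 13 without IM mouse 3, 44 without AW mouse 1) and 1 to 15 for genotype (1 without IW mouse 1, AW mouse 2, IM mouse 1, IM mouse 3 or AM mouse 3, 15 without AW mouse 1). With the replicate number as a block the counts were 23 and 7, the thin filament list had 2 in place of 4 genotype calls, and no actin gene was called. The numbers mark different mice, and which mice the study matched for running was not given. Deviations of same-numbered mice had r of -0.60 to 0.48, and all 3 pairs were over 0.1 in 1 of 6 pairs of groups, IM with AM (0.171 to 0.322), so the numbers were not taken as pairs. Fewer mice and the low counts of Actg1 and Acta2 limit these values.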
